A study of Mus musculus with 20 samples.

Results

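The miRNAs described here are the 4 striated muscle miRNAs mmu-miR-133a, mmu-miR-133b, mmu-miR-1 and mmu-miR-206 (miR-133a, miR-133b, miR-1 and miR-206 below), taken as the probes whose miRNA name on the array is exactly one of these, star forms excluded, which gave 4 of 655 probes. They were followed through the ileal epithelium as possible signs of RNA from cells other than epithelium. The epithelium came from wild type C57BL/6J mice, male and aged 4 months, and was released into a chelating buffer in 5 successive fractions. C1, the last to be released, stood for the crypt, and V3, V2, V1 and V0 followed towards the villus tip, with V0 the first to be released. Total RNA of each fraction was hybridised to Illumina bead arrays, with 4 arrays per fraction, 20 in all. The fractions were defined by the order of release and not by cell sorting, so each can hold cells of other kinds, and in such bulk RNA fewer cells of a type and less RNA per cell cannot be told apart. Nothing in the sources used here says which arrays share a mouse, so arrays were compared unpaired and replicate numbers only name them.

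miR-1, miR-133 and miR-206 are the classical miRNAs of heart and skeletal muscle, where they act on the growth and differentiation of the muscle cell. miR-1 and miR-133a are made together from shared precursor transcripts in heart and skeletal muscle, and miR-206 and miR-133b are made together from another transcript, mainly in skeletal muscle. The muscle of the ileal wall is smooth muscle, whose best known miRNAs are miR-143 and miR-145, and the epithelium itself is marked by the miR-200 family and by miR-192, miR-194 and miR-215.

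The mature sequences are shown because the members fall into families with a shared seed, the stretch at bases 2 to 8 that pairs with targets, and because a probe for one member may also bind its near relative. The RefSeq table used here (mouse build GRCm38.p6) matched 2 of the 4 members, with the seed in capitals.
mmu-miR-133b-3p: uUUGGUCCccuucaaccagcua
mmu-miR-206-3p: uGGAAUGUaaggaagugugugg
The seed of miR-133b is also that of miR-133a, and the mature forms of this pair differ only in the last base. The seed of miR-206 is also that of miR-1. Whether the probes of a pair can tell their targets apart was not tested, so signal on the miR-133b probe may in part be miR-133a, and the same holds for miR-206 and miR-1.

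The precursors of the matched members lie close to each other on chromosome 1, on the plus strand, and are printed with the mature arm in capitals because in skeletal muscle their products are made from one transcript. The Mir206 hairpin is at chr1:20679010-20679082 and the Mir133b hairpin at chr1:20682769-20682887, with 3686 bases between them.
Mir206: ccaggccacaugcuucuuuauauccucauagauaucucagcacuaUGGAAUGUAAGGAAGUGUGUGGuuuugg
Mir133b: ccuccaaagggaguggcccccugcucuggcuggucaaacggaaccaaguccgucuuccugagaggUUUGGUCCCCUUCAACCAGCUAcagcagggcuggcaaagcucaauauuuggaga

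The strength of the arrays differed. Before normalization 285 to 372 probes per array were detected (detection p of at most 0.01) in C1, while V3 had 258 to 477, V2 344 to 471, V1 388 to 481 and V0 326 to 466, and the median signal of an array was 622 to 1752 units in V0 and 319 to 841 units in C1. C1 replicate 4 and V3 replicate 4 had the fewest detected probes of their fractions. V0 and C1 shared only slide 2 of the 4 slides, which held V0 replicates 3 and 4 and C1 replicate 3. The markers of the labelled tissue were present, with each miRNA of the miR-200 family detected on 18 to 20 arrays, and miR-192, miR-194 and miR-215 on all 20. The smooth muscle miRNAs miR-145 and miR-143 were detected as often, on 20 and 18 arrays, while the star form miR-145* was detected on 4. Judged by miR-143 and miR-145, detection alone therefore does not set epithelium apart from smooth muscle here.

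miR-133a was the member measured most often, on 19 of the 20 arrays, and its signal was highest in V0. The signal is given as log2 of the normalized intensity. mmu-miR-133a had 12.93, 13.55, 13.31 and 12.33 on V0 replicates 1 to 4, against 10.11, 9.92, 11.97 and 10.02 on C1 replicates 1 to 4. All 4 V0 arrays were above all 4 C1 arrays, and C1 replicate 3, the highest of its fraction, came closest to the V0 arrays. The difference of V0 minus C1 was 2.52 (SE 0.79, n = 4 arrays each), a 5.75-fold higher mean in V0. It did not pass the test, which asked for an adjusted p of at most 0.05 and a 2-fold difference (limma, two-sided, adjusted p = 0.15 over 321 probes). In that comparison 0.623% of the probes tested passed, and none of the 4 members did. A V0 signal above C1 on every array was found for 4.67% of the probes tested, and miR-133a was the member among them.

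The size of the miR-133a difference depended on which arrays it was taken from. On slide 2 alone, with V0 replicates 3 and 4 against C1 replicate 3, it was 0.85 (SE 1.37, limma adjusted p = 0.99). With slide as a fixed block it was 1.38 (SE 0.90, limma adjusted p = 0.35). Without C1 replicate 3 it was 3.01 (limma adjusted p = 0.076), and leaving out any other array gave 2.33 to 2.76. In each of the 22 alternatives tried, the sign was the same. Several of them could not have changed it. Those that altered only the detection filter, the spread model or the test left the difference as it was. Because every V0 array lay above every C1 array, leaving out arrays could not reverse it either.

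**Figure D1:**
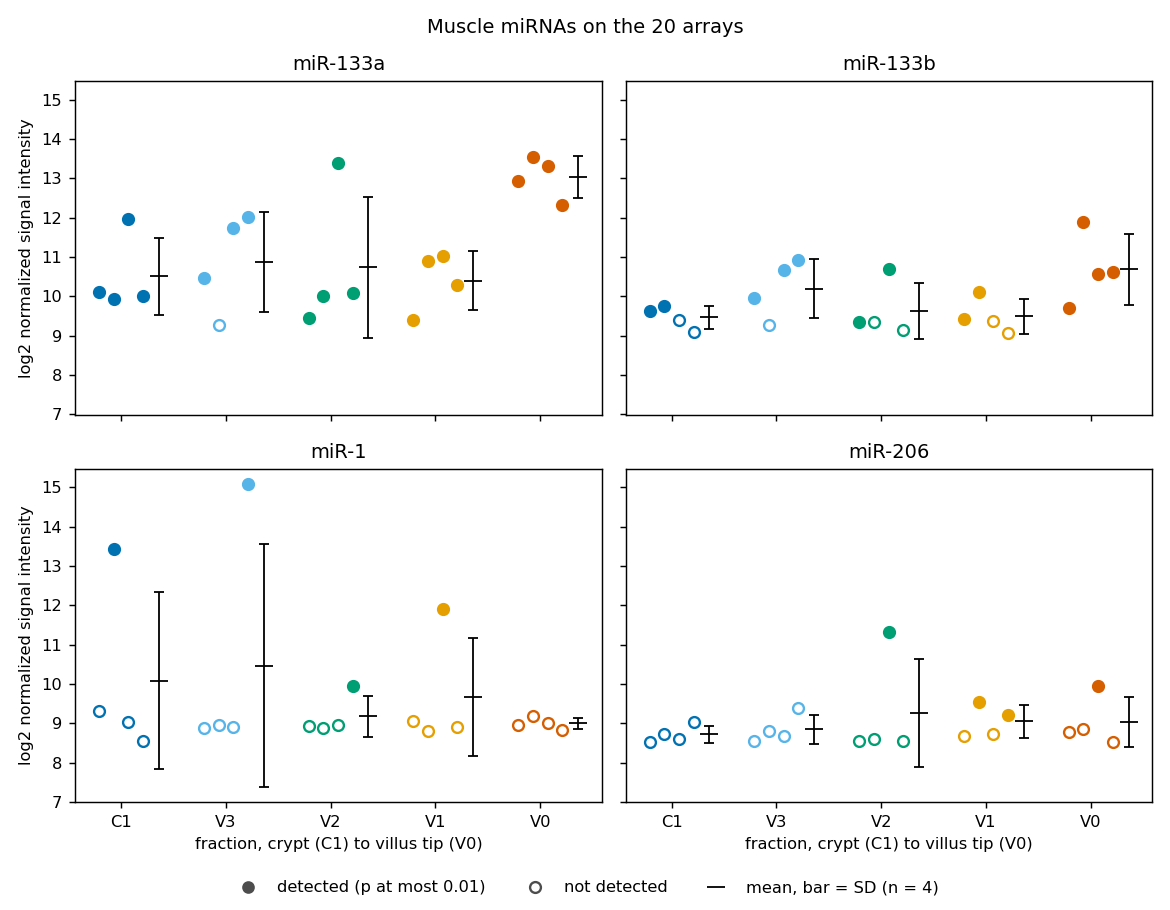
Log2 normalized signal of miR-133a, miR-133b, miR-1 and miR-206 on each array (vertical axis) by fraction in axis order (horizontal axis). Filled points passed the detection limit and open points did not, and black marks give the mean with its SD over 4 arrays. The V0 points of miR-133a lie between 12.33 and 13.55, while miR-1 and miR-206 stay near the undetected level apart from single arrays.

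Between C1 and V1 no step of miR-133a along the axis was visible beyond the spread. C1 averaged 10.51 ± 0.98, V3 10.87 ± 1.27, V2 10.74 ± 1.80, V1 10.40 ± 0.75 and V0 13.03 ± 0.53 (SD, n = 4 arrays each). The single arrays were at 10.45, 9.26, 11.75 and 12.01 in V3, at 9.45, 10.02, 13.40 and 10.07 in V2, and at 9.39, 10.90, 11.03 and 10.29 in V1. V2 replicate 3 stood at the level of V0, and it was the only one of the 16 arrays outside V0 that exceeded the lowest V0 array. In units before normalization V2 replicate 3 was below V0, at 3888 units against 4484 on the lowest V0 array. Set against the median of its own array before normalization it was at 6.61 times, again above the lowest V0 array at 6.41 times. V2 replicate 3 also had the fewest detected probes of V2, 344 before normalization. On V3 replicate 2 miR-133a was not detected.

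The villus fractions below the tip differed from C1 in miR-133a by less than the standard error. The difference was 0.36 for V3 minus C1 (SE 0.78, limma adjusted p = 0.90), 0.23 for V2 minus C1 (SE 0.79, adjusted p = 0.85) and -0.11 for V1 minus C1 (SE 0.79, adjusted p = 0.94). Of all probes tested, 0.361% passed for V3, 0.645% for V2 and 0.578% for V1, and no member did. The signs of these small differences changed when slide, scale or single arrays were treated differently, and with slide as a fixed block V2 minus C1 was -0.91 (SE 0.91) and V1 minus C1 was -1.25 (SE 0.90).

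Neighbouring fractions were then compared along the axis. V1 minus V2 was -0.33 and V2 minus V3 was -0.14 for miR-133a (limma adjusted p = 0.9998 and 0.993), so the 4 lower levels had no order beyond their spread. The only large step was the last one, with V0 above V1 by 2.63 (SE 0.79, n = 4 arrays each) and all 4 V0 arrays above all 4 V1 arrays. It did not pass either (limma adjusted p = 0.52 over 356 probes). For V0 minus V1, V1 minus V2 and V2 minus V3, 0% of the probes tested passed, at 13, 2 and 3 probes with an unadjusted p below 0.05. A V0 signal above V1 on every array was found for 2.25% of the probes tested. A line fitted over the 5 fractions rose by 0.46 per step for miR-133a (SE 0.20, limma adjusted p = 0.18), where 0% of 384 probes passed and 93 had an unadjusted p below 0.05.

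**Figure D2:**
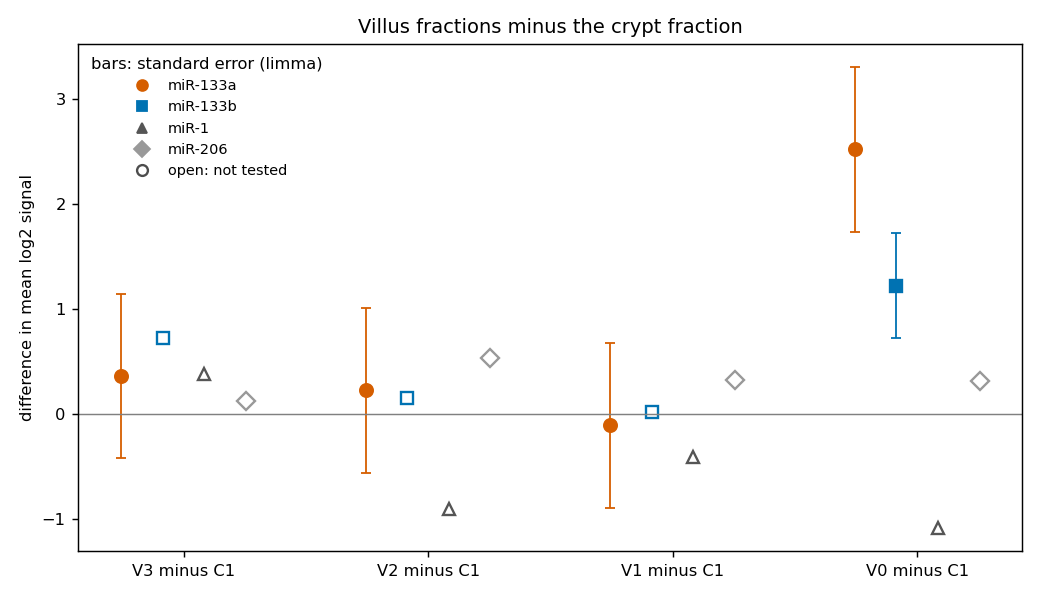
Difference in mean log2 signal between each villus fraction and C1 (vertical axis) for the 4 members, with the fractions in axis order (horizontal axis). Bars are standard errors from limma for the members tested in that comparison, and open symbols had too few detected arrays to be tested. For miR-133a V0 minus C1 is 2.52 and the other villus fractions lie between -0.11 and 0.36.

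Normalization bore on the level of single arrays. Before normalization miR-133a had 4484, 15939, 14663 and 6910 units in V0, against 533, 603, 3638 and 337 units in C1. Every V0 value was above every C1 value on this scale also. Set against the median of its own array, miR-133a was at 6.41 to 13.7 times the median in V0 and at 1.04 to 4.33 times in C1. By rank among the 655 probes of an array it was between 98 and 151 in V0 and between 167 and 312 in C1. V3 replicate 4 shows how far the scales can part, with 481 units before normalization, close to the array's own median of 310 units, and 4134 units after it.

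Without normalization V0 minus C1 passed for both miR-133 probes. The difference was 3.54 for miR-133a (limma adjusted p = 0.021) and 2.22 for miR-133b (limma adjusted p = 0.040). Detection was still taken after normalization. Before normalization miR-133b was detected on 3 of 4 V0 arrays, and by that detection it could not be tested. On this scale the median of all probes tested was 0.95 higher in V0 than in C1, against -0.04 after normalization, and 12 probes passed in place of 2. Relative to that median, both differences were of the size found after normalization. With each array centred on its median instead, V0 minus C1 of miR-133a was 2.49 (limma adjusted p = 0.094).

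**Figure D3:**
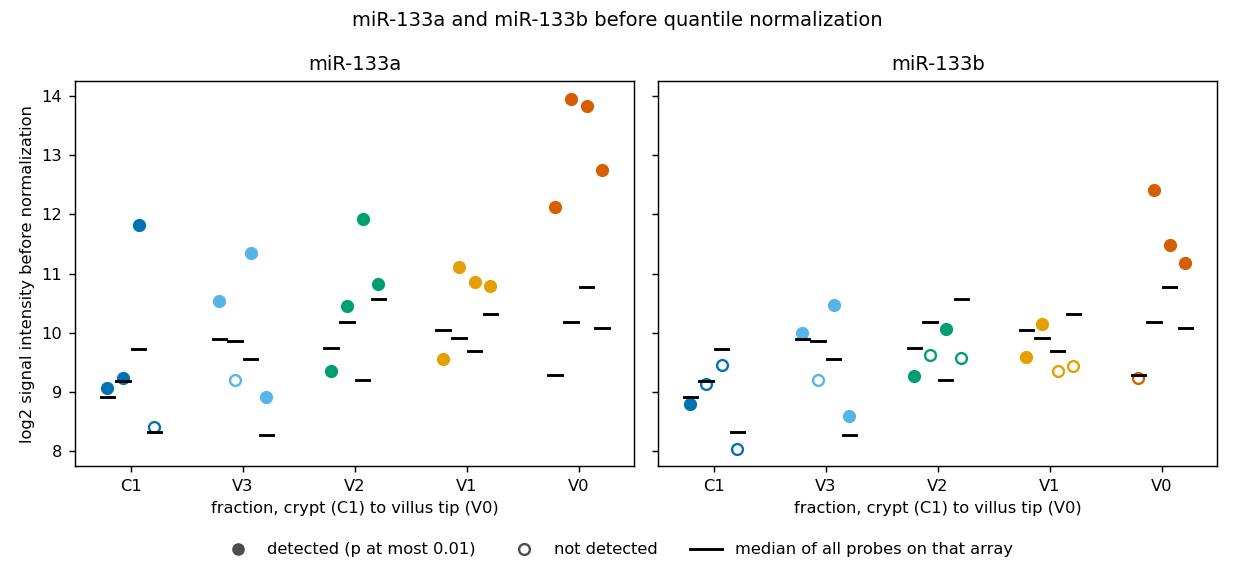
Log2 signal of miR-133a and miR-133b before normalization on each array (vertical axis) by fraction in axis order (horizontal axis), with filled points detected and open points not detected. Short black lines give the median of all probes on the same array, which was 622 to 1752 units in V0 and 319 to 841 units in C1. The V0 points of miR-133a lie far above their arrays' medians, while most points of miR-133b lie near them.

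miR-133b, the close relative of miR-133a, was dimmer and was detected on 13 arrays. mmu-miR-133b had 9.70, 11.89, 10.56 and 10.61 on V0 replicates 1 to 4, all 4 detected, against 9.61, 9.75, 9.39 and 9.10 on the C1 arrays, of which replicates 1 and 2 were detected. V0 replicate 1 lay inside the C1 range and the other V0 arrays above it. V0 minus C1 was 1.22 (SE 0.50, n = 4 arrays each), a 2.33-fold higher mean in V0, and did not pass (limma adjusted p = 0.25). Without V0 replicate 2, the highest array of all, it was 0.82 (limma adjusted p = 0.47), and with slide as a fixed block it was 0.68 (limma adjusted p = 0.52).

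Along the axis miR-133b had a mean of 9.46 ± 0.29 in C1, while V3 had 10.20 ± 0.74, V2 9.62 ± 0.72, V1 9.49 ± 0.45 and V0 10.69 ± 0.90 (SD, n = 4 arrays each). Its arrays were at 9.95, 9.27, 10.66 and 10.91 in V3, at 9.34, 9.34, 10.69 and 9.13 in V2, and at 9.41, 10.12, 9.37 and 9.06 in V1. V3 and V0 overlapped, and 6 of the 16 arrays outside V0 exceeded the lowest V0 array. V0 minus V1 was 1.2 (SE 0.50, limma adjusted p = 0.9996) and the slope over the fractions 0.17 per step (SE 0.12, limma adjusted p = 0.30). In the comparisons of V3, V2 and V1 with C1 miR-133b was detected on too few arrays to be tested.

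miR-1, among the most abundant miRNAs of adult heart and skeletal muscle, gave the opposite kind of pattern, with no signal on most arrays and a strong one on a few. It was detected on 4 of the 20 arrays, 1 in each fraction other than V0. These were C1 replicate 2 at 13.42, V3 replicate 4 at 15.09, V2 replicate 4 at 9.96 and V1 replicate 3 at 11.91. On the other 16 arrays it lay between 8.56 and 9.31, around the median of 8.96 found for undetected probes of all kinds. On V3 replicate 4 miR-1 was the 41st brightest of the 655 probes, with 22581 units already before normalization, 72.8 times the median of that array. On C1 replicate 2 it had 12534 units before normalization, 21.7 times the array's median.

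In V0 mmu-miR-1 was detected on 0 of 4 arrays, with values of 8.97, 9.19, 9.0 and 8.83, against 9.31, 13.42, 9.03 and 8.56 in C1. It had too few detected arrays to be tested in any comparison. Set against the lowest detected signal of the V0 arrays, the C1 mean gave 1.72-fold lower signal in V0, with 1 of 4 C1 arrays measured. The undetected C1 arrays entered at their own signal, so this fold is not a strict lower bound. It came from C1 replicate 2, since without that array V0 minus C1 was 0.03. A fit with detected probes per array as covariate gave 0.21 in place of -1.08. In the same way the 1.295-fold lower signal in V0 than in V1 came from V1 replicate 3, without which V0 minus V1 was 0.08. C1 averaged 10.08 ± 2.25, V3 10.46 ± 3.09, V2 9.18 ± 0.52, V1 9.67 ± 1.50 and V0 9.0 ± 0.15 (SD, n = 4 arrays each), and the spread was wide where a fraction held a bright array.

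miR-206, the member most confined to skeletal muscle, was the dimmest. It was detected on 4 of the 20 arrays, V2 replicate 3 at 11.32, V0 replicate 3 at 9.96, V1 replicate 2 at 9.55 and V1 replicate 4 at 9.22. On the other 16 arrays it lay between 8.53 and 9.38. In V0 mmu-miR-206 had 8.78, 8.85, 9.96 and 8.53, against 8.53, 8.72, 8.59 and 9.03 in C1, where no array was detected. V0 and C1 overlapped, and V0 minus C1 was 0.31, or 0.004 without V0 replicate 3, and -0.07 with each array centred on its median. Mean levels were 8.72 ± 0.22 for C1, 8.85 ± 0.37 for V3, 9.25 ± 1.38 for V2, 9.05 ± 0.41 for V1 and 9.03 ± 0.63 for V0 (SD, n = 4 arrays each). No fold against the detection level was given. Where a single fraction of a comparison had detected arrays, its mean was not above the detection level of the other, and the remaining comparisons were not set against that level. miR-206 was tested in no comparison.

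The bright arrays of the members coincided in part. V2 replicate 3, the brightest array for miR-206, was also the brightest V2 array for miR-133a at 13.40 and for miR-133b at 10.69, and on it miR-1 was undetected at 8.94. V0 replicate 3, the next for miR-206, had 13.31 for miR-133a. On the 4 arrays where miR-1 was detected, miR-133a had 9.92 on C1 replicate 2, 12.01 on V3 replicate 4, 10.07 on V2 replicate 4 and 11.03 on V1 replicate 3, and miR-206 was detected on none of them. On the normalized scale V3 replicate 4 and V1 replicate 3 were the brightest arrays of their fractions for miR-133a, and V3 replicate 4 also for miR-133b at 10.91. C1 replicate 2 was the dimmest C1 array for miR-133a on that scale. Before normalization V3 replicate 4 was the dimmest V3 array for miR-133a, with 481 units, and for miR-133b, with 385 units. V1 replicate 3 then had 1864 units of miR-133a, below the 2213 units of V1 replicate 2. miR-1 and miR-133a, which come from shared precursor transcripts in muscle, were thus not bright together on C1 replicate 2 or on the V0 arrays. Only after normalization were both above the rest of their fraction on V3 replicate 4 and V1 replicate 3.

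Over the 20 arrays miR-133a and miR-133b had a Pearson correlation of 0.77 (Spearman 0.71), and 0.66 after the mean of each fraction was removed. miR-133a and miR-206 had 0.50 (Spearman 0.33), and 0.69 after the fraction means were removed. miR-133b and miR-206 had 0.36 (Spearman 0.21), and 0.48 after that step. miR-1 had -0.01 with miR-133a, 0.15 with miR-133b and 0.00 with miR-206. These values describe arrays that share slides and, in a way not known, mice, and they include undetected signal. The array annotation places miR-206 and miR-133b on chromosome 1 and gives a pair of chromosomes for each of miR-1 and miR-133a.

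**Figure D4:**
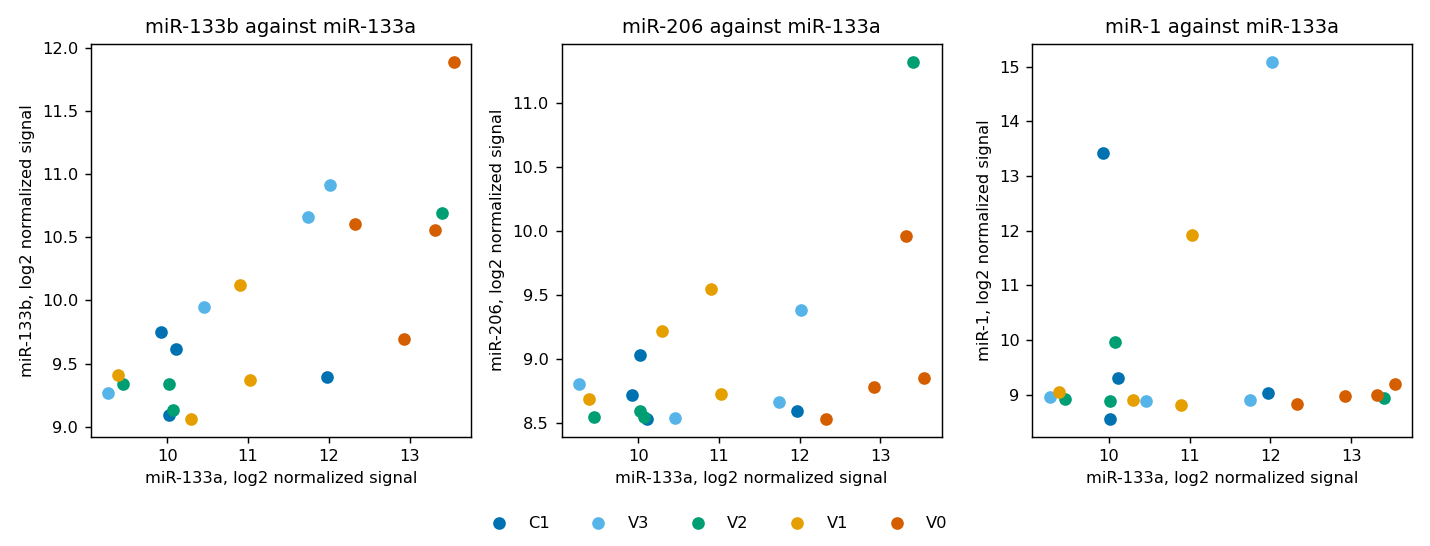
Log2 normalized signal of miR-133b, miR-206 and miR-1 (vertical axes) against that of miR-133a (horizontal axes) on the 20 arrays, coloured by fraction. miR-133b runs along with miR-133a, with a Pearson correlation of 0.77, while miR-1 is near the undetected level on 16 arrays at any level of miR-133a, with a correlation of -0.01.

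Likeness was also ranked over all probes that were detected on every array of at least 1 fraction. Of 354 such probes the one most like miR-133a was miR-133b, followed by miR-199b* at 0.55 and miR-511 at 0.53. For miR-133b the order was miR-133a, miR-130a at 0.56 and miR-455 at 0.55. For miR-1, with 355 probes ranked, miR-708* came first at 0.79, then miR-302b and miR-681 at 0.77 each, but the Spearman values of these 3 were 0.24 to 0.33. For miR-206 it was miR-1224 at 0.78 with a Spearman value of 0.16, then miR-425* at 0.56 and miR-483* at 0.53. miR-1 and miR-206 were not themselves among the probes ranked, since neither was detected on every array of any fraction.

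Other miRNAs of striated muscle did not share the V0 level of miR-133a, apart from miR-486. Of 6 such probes 3 were higher and 3 lower in V0 than in C1, with a median of -0.15, beside -0.04 over all probes tested. Of the 6, 3 were tested and 0 passed. miR-208a and miR-208b, which are encoded in cardiac and slow skeletal myosin genes, averaged 9.82 and 9.75 in V0, against 10.35 and 10.28 in C1. miR-208a was detected on 18 of the 20 arrays, more often than miR-1 or miR-206. miR-499, encoded in another myosin gene, was detected on 0 of 4 arrays in both V0 and C1. miR-133a*, the other strand of the miR-133a precursor, averaged 10.22 ± 0.59 in V0 and 10.18 ± 0.34 in C1 (SD, n = 4 arrays each). V0 minus C1 of the star form was 0.04 (SE 0.37, limma adjusted p = 0.95), and its correlation with miR-133a over the arrays was 0.44. miR-486, which is also abundant in red blood cells, averaged 13.42 in V0 and 10.37 in C1, with V0 above C1 on every array and a difference of 3.05 (SE 0.85, limma adjusted p = 0.083).

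miR-499 was detected on only 2 of the 20 arrays, and 1 of them was V3 replicate 4, at 14.56, the array with the highest miR-1. Over the 20 arrays miR-1 and miR-499 had a Pearson correlation of 0.71, and of -0.24 without that array. The same array had the fewest detected probes of all, 258 before normalization, and on it miR-143 lay at 9.09 and was not detected, where the other V3 arrays had 13.68 to 14.05. The part of array strength in the miR-1 and miR-499 signals was not tested.

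Markers of other cell types were set beside miR-133a. The 3 smooth muscle probes were all higher in V0 than in C1, with a median of 1.55, and of the 2 tested 0 passed. The median is that of miR-145*, which was not tested. miR-143 averaged 15.34 in V0 and 12.90 in C1, 2.45 higher in V0 (SE 0.97, limma adjusted p = 0.24). On C1 replicate 4 miR-143 lay at 9.90 and was not detected, and without that array, left out after the data were seen, V0 minus C1 was 1.45. miR-145 averaged 15.65 in V0 and 15.24 in C1 (limma adjusted p = 0.71). The summed normalized signal of the smooth muscle probes was 69596 to 114893 units on the V0 arrays and 37524 to 73075 units on the C1 arrays, so the fractions overlapped. Over the 20 arrays miR-133a had a Pearson correlation of 0.20 with miR-143 and 0.08 with miR-145. After the mean of each fraction was removed these were -0.20 and -0.16. Without V3 replicate 4, and with the fraction means kept, they were 0.42 and 0.63.

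For the remaining lists the median of V0 minus C1 was 0.34 over 5 fibroblast and stroma probes and 0.998 over 2 endothelial probes. It was 1.89 over 3 erythroid, 1.24 over 5 leukocyte and 1.48 over 4 neuronal probes. Tested were 4 stroma, 2 endothelial, 2 erythroid, 4 leukocyte and 1 neuronal probe, and none of these passed. On the stroma list 4 probes were higher in V0 and 1 lower. Its miR-199b* was 2.52 higher (SE 0.68, limma adjusted p = 0.071), close to miR-133a. Of the erythroid markers, miR-451 was detected on all 20 arrays and was 1.89 higher in V0 (SE 0.89, limma adjusted p = 0.29). miR-486, also on this list, was 3.05 higher, and miR-144 was detected on 0 of 20 arrays. The epithelial list had 5 of 5 probes above C1 in the mean and a median of 1.78, and 0 passed. Without C1 replicate 4, on which miR-200a lay at 8.74 against 13.80 to 14.41 on the other C1 arrays, 4 of the 5 were above C1 and the median was 0.50, while that of the smooth muscle list was 1.45 and that of the stroma list 0.50. The enterocyte list had a median of 0.23 over 3 probes with that array and 0.21 without it. V0 minus V1 was 2.63 for miR-133a. The list medians were 1.17 for smooth muscle, 1.17 for stroma and 0.13 for the other striated muscle probes. The epithelial list had -0.01 and the enterocyte list 0.008. Tested were 2 smooth muscle, 4 stroma, 4 other striated muscle, 5 epithelial and 3 enterocyte probes, and 0 passed. The epithelial median is that of miR-200b (15.90 in V0, 15.91 in V1) and the enterocyte median that of miR-215 (15.91 and 15.90). Both lay at the top of the normalized scale of the marker probes, where a difference may not show. The part of any of these cell types in the miR-133a difference was not tested.

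**Figure D5:**
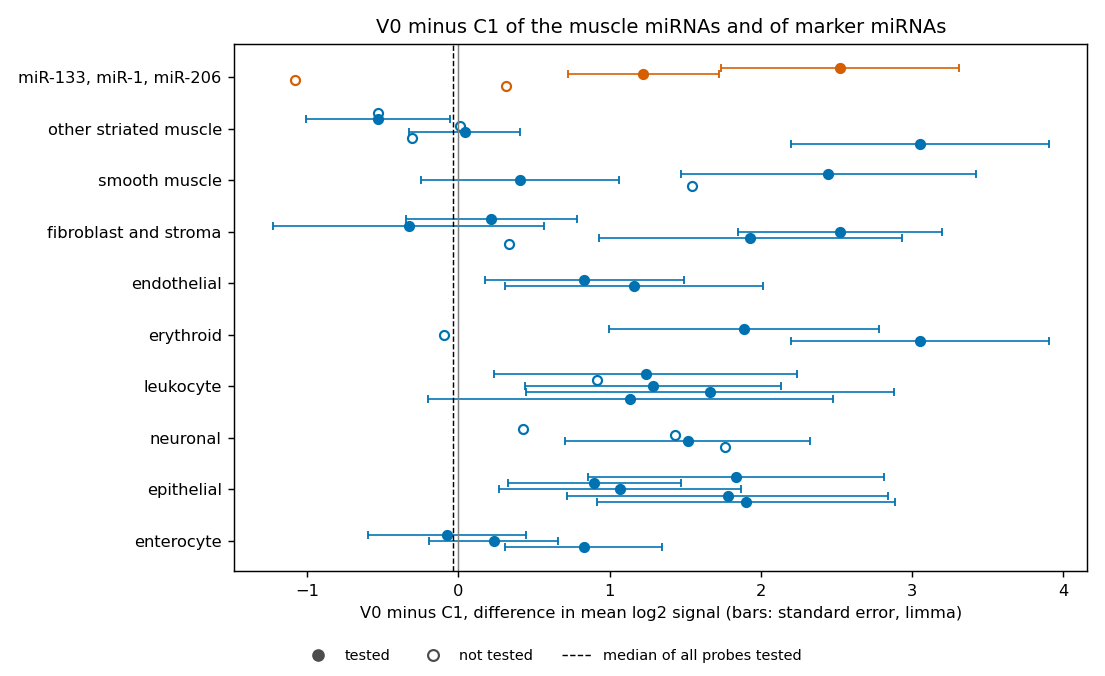
V0 minus C1 in mean log2 signal (horizontal axis) for the 4 members, in the top row, and for marker probes of other muscle, stromal, blood, neuronal and epithelial cells, a row per list. Bars are standard errors from limma for the probes tested, open points were not tested, and the dashed line is the median of all probes tested, -0.04. miR-133a at 2.52 lies near miR-199b* of the stroma list at 2.52, miR-486 at 3.05 and miR-143 at 2.45. The miR-143 value is 1.45 without C1 replicate 4. Most other striated muscle probes lie near 0.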

How the data were processed

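The authors read the arrays with Illumina software and deposited, for each of 655 probes, the average signal intensity as read and after joint quantile normalization of the 20 arrays. No background was subtracted. The deposited tables also hold a detection p-value for every probe on every array. The deposited value table equals the normalized intensity (largest difference 0). No genome build was named for the annotation.

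The normalized intensity was taken to log2 here and tested in limma 3.58.1 under R 4.3.3 (lmFit, eBayes, 1 mean per fraction, all 20 arrays, n = 4 per fraction). A probe was tested where at least 1 fraction of the comparison, or for the slope of the axis, had it detected (p of at most 0.01) on each of its 4 arrays. Adjustment was by Benjamini-Hochberg over all probes tested, and the limit was an adjusted p of 0.05 and, except for the slope, 2-fold. A fold against the detection level sets a dim fraction at the lowest detected signal of each array. Undetected arrays of the brighter fraction keep their own signal, so such a fold is not a strict bound. The slope was over steps 0 (C1), 1, 2, 3 and 4 (V0). The study's paired comparison was not run because pairs are not known. The smallest two-sided p of an exact rank-sum test with 4 arrays a side is 0.029.

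Named were the 4 members, the 3 probes most correlated with each, and up to 4 probes per marker list. The members and lists were chosen with earlier results of these data known. miR-486 was named after its values were seen. P-values measure the spread between arrays, which may be technical. The fit was tested on simulated data with independent normal noise, so that test does not cover shared slides, shared mice or single outlying arrays. Alternatives changed the normalization, background, detection filter, slide, arrays, spread model, covariate and test. Figures were drawn with matplotlib 3.10.9.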

Additional observations from a re-analysis of the deposited data

Results flagged for a closer look

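In 8 of the 20 groups of 4 arrays (each member in each fraction), 1 array lay farther from the others than the limit of Dixon's test allows. Chance would flag about 1 in 20 independent groups with a normal spread. These groups share arrays and include undetected signal, so that rate is only a rough guide. For miR-133a these arrays were V2 replicate 3 at 13.40 and C1 replicate 3 at 11.97 on the log2 scale, both on slide 2. For miR-133b it was V2 replicate 3 at 10.69, and for miR-206 it was V2 replicate 3 at 11.32, so this array stood apart for 3 of the 4 members. For miR-1 it was C1 replicate 2 at 13.42, V3 replicate 4 at 15.09, V2 replicate 4 at 9.96 and V1 replicate 3 at 11.91, the 4 arrays on which miR-1 was detected. No V0 group was among the 8.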

How the results depend on the processing

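Without normalization V0 minus C1 passed for miR-133a (3.54) and miR-133b (2.22), as did their slopes (0.77 and 0.45 per step), with a median shift of all probes tested of 0.95. Under the other alternatives tried, no comparison of a member passed. V0 minus C1 kept its sign for miR-133a (0.85 to 3.54) and miR-133b (0.68 to 2.24). Alternatives that changed only the detection filter, the spread model or the test could not change this sign. V0 minus C1 changed sign for miR-1 without C1 replicate 2 and with detected probes per array as covariate. For miR-206 it changed sign with arrays centred on their median. The small miR-133a differences changed sign. V1 minus C1 was 0.95 without normalization, -1.25 with slide as a fixed block, -1.31 on slide 2 alone, and -0.31 to 0.38 with single arrays left out. V2 minus C1 was -0.91 with slide as a fixed block, -0.10 as a random block, -0.24 on slide 2 alone, and -0.66 to 0.72 with single arrays left out. V3 minus C1 was -0.13 with slide as a fixed block, -0.092 on slide 2 alone, -0.18 without the weakest V3 and C1 arrays, and -0.018 to 0.90 with single arrays left out. V1 minus V2 was -0.76 to 0.56 with single arrays left out. V2 minus V3 was 0.64 without normalization, 0.11 with arrays centred on their median, 0.25 without the weakest arrays, and -1.02 to 0.29 with single arrays left out. The causes were not tested. miR-133b could not be tested for V0 minus C1 with detection on all 8 arrays or with detection taken before normalization. No paired analysis was possible because nothing in the labels ties an array to its mouse. Slide 4 held only C1 replicate 4, and 4 arrays per fraction and signal near background limit what can be said of miR-1 and miR-206.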
